A study of Mus musculus with 2 samples.

Results

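The genes described here encode the insulin-like growth factors and the proteins that receive, bind and relay them: Igf1, Igf2, Igf1r, Igf2r, Insr, Igfbp2, Igfbp3, Igfbp4, Igfbp5 and Irs1. These 10 of 22380 protein-coding genes of GENCODE vM1 (mouse build mm9) were chosen by name, with the number of Foxf2 peaks at Igf1r already known. A peak belonged to a gene if its centre lay inside the gene, or if a start of that gene (transcription start site, TSS) was the closest protein-coding one and lay within 100 kb. By that rule 21 of 9165 peaks belonged to 8 of the 10 genes. Igf1r had 8 of them, Irs1 had 5, Igf1 and Igf2r had 2 each, and Igf2, Insr, Igfbp3 and Igfbp4 had 1 each. Igfbp2 and Igfbp5 had none.

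Foxf2 is a forkhead factor known from mesenchyme of the developing palate. Here it was precipitated with an anti-FLAG antibody from palatal shelves of Foxf2FLAG/FLAG mouse embryos at E13.5, that is with both endogenous copies tagged (3xFLAG, made by CRISPR/Cas9). The labels give 50 dissected pairs of shelves. There was 1 ChIP library of 26849463 tags and 1 input library of the same tissue, made without antibody; from the values of the peaks its depth was computed to be 19233900 tags. Neither had a replicate, no library from untagged embryos was analysed here, and expression was not measured. All intervals below are exact 95% intervals for counting error only. With 1 library each, variation between libraries was not measured, and the selection of peaks by a 10-fold excess is not allowed for. Copies of a fragment made by PCR are not independent molecules, and the peak caller's setting was 1 tag per position.

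IGF1 and IGF2 are secreted growth factors that signal through the receptor tyrosine kinase IGF1R, and IGF2 also through a form of the insulin receptor. IGF2R binds IGF2 without signalling as a kinase and carries it to the lysosome. IGF binding proteins hold the ligands outside the cell, and IRS1 is an adaptor that couples the activated receptors to the PI3-kinase and AKT cascade. AKT in turn phosphorylates FOXO proteins, which are themselves forkhead factors. Igf2 and Igf2r are imprinted in the mouse, Igf2 being expressed from the paternal allele and Igf2r from the maternal one.

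The sequences that carry the account of Igf1r come from intron 2 and from the promoter. They are given on the plus strand of mm9, which is the coding strand of Igf1r, and were read from the NCBIM37 genome. Capitals mark forkhead sites on either strand, that is ATAAACA or the like ATAAATA, and with a first G, GTAAACA or else GTAAATA, so that TGTTTAC is GTAAACA on the minus strand. GTAAACA is called the strict site. The first sequence is the central 200 bp of the peak 116 kb into the gene (chr7:75213790-75213989). The next pair comes from the peak with the most tags, 176 kb into the gene: the forkhead site nearest to its centre (chr7:75273963-75274019) and the stretch that holds 2 strict sites on opposite strands (chr7:75274331-75274460). The fourth is the strict site of the peak 128 kb into the gene (chr7:75225963-75226019). The last is the central 200 bp of the promoter peak (chr7:75097470-75097669), shown for contrast because it has no forkhead site.
Igf1r +116 kb: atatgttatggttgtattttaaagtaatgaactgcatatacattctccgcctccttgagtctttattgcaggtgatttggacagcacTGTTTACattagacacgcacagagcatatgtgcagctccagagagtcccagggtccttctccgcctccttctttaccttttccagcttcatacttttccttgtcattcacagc
Igf1r +176 kb, nearest site: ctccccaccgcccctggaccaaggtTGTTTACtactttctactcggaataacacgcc
Igf1r +176 kb, pair of sites: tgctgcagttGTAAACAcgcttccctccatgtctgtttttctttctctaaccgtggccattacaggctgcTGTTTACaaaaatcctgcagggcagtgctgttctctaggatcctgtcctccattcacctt
Igf1r +128 kb: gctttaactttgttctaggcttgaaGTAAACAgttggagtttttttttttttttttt
Igf1r promoter: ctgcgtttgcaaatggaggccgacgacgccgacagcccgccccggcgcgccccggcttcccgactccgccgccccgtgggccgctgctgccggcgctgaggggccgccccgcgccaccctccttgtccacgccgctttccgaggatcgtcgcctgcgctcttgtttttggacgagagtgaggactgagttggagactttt

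Igf1r, the receptor gene, spans 274 kb of chromosome 7 (75097713-75371484, plus strand), and its main transcript has 21 exons. Of its 8 peaks, 2 lay at or just upstream of the first TSS and the other 6 lay in intron 2, which is 161 kb long and makes up 58.7% of the gene. No peak centre fell in an exon or in any of the later introns. A shorter annotated transcript starts 196 kb into the gene, downstream of every peak inside it. The peaks 116, 128, 163, 168 and 176 kb into the gene were nearer to this start, 79.6, 67.4, 32.8, 28.1 and 19.6 kb upstream of it. The 6 peaks inside the gene correspond to 21.9 per Mb, beside 3.63 per Mb over the full length of the autosomes and 3.29 per Mb on chromosome 7. Since Igf1r was chosen with its number of peaks known, this density is a description and was not tested.

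Tags at Igf1r were concentrated in a pair of broad regions of intron 2. The region 176 kb from the first TSS (chr7:75273037-75274697, 1660 bp wide) had 236 tags in the ChIP and 16 in the input, 10.6 times as many after scaling for depth (6.37 to 18.8). Its ChIP tag number, summed over the 1660 bp, ranked 39th of 9165 peaks, while its fold was the lowest of the 21 peaks of these genes. The region 116 kb from the first TSS (chr7:75213405-75214374, 969 bp wide) had 134 tags against 8, a 12.0-fold excess (5.92 to 28.4), and ranked 340th. Together these 2 regions held 370 of the 504 ChIP tags of all Igf1r peaks (73.4%). Per kb of peak they held 142 and 138 tags, which ranked 721st and 788th of 9165 peaks, beside a median of 56 for all peaks. The genome-wide mean in the file header was 13.4 tags per kb, but the peak caller's 10-fold requirement selects for an excess over it.

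The other 6 Igf1r peaks were small, with 16 to 40 ChIP tags. The promoter peak (chr7:75097182-75097956), centred 144 bp upstream of the first TSS, had 40 tags against 2 (14.3-fold, 3.72 to 122). A neighbour 2.09 kb upstream of the TSS (chr7:75095375-75095875) had 16 tags against 1 (11.5-fold, 1.78 to 481). In intron 2, the peaks 128 kb, 163 kb and 168 kb into the gene had 18, 25 and 17 tags against 1 input tag each. Their folds were 12.9 (2.04 to 537), 17.9 (2.93 to 735) and 12.2 (1.91 to 509). The peak 59.0 kb into the gene had 18 tags and no input tag. The lower bound of its exact interval was 3.15-fold. Set against 3 input tags, the limit that a count of 0 allows, its excess was 4.30-fold, a value that leaves out the counting error of the ChIP tags. These small peaks rest on at most 2 input tags each, and their intervals reach far below the 10-fold excess that the peak caller required.

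**Figure D1:**
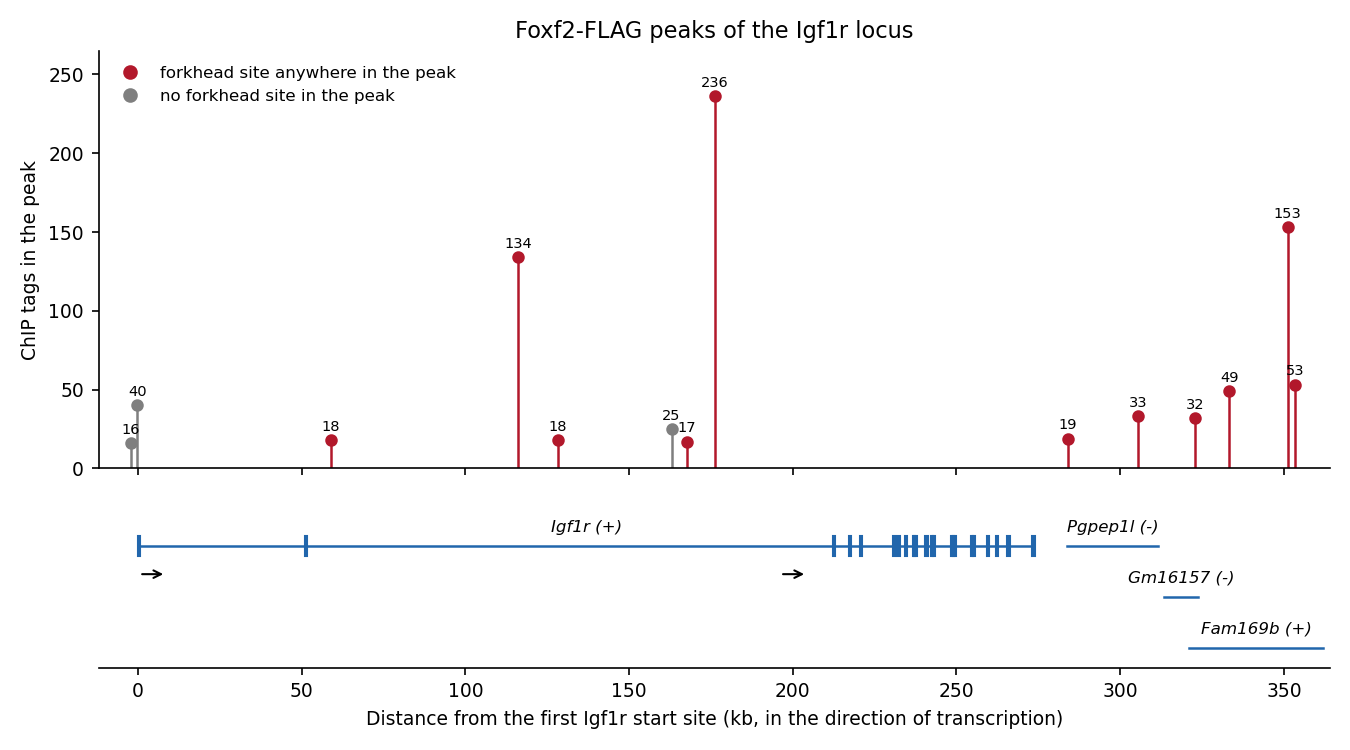
ChIP tags of each Foxf2-FLAG peak (vertical axis) against its distance from the first Igf1r TSS in kb (horizontal axis), for 1 ChIP library; red marks peaks that hold a forkhead site, blue bars are exons of the main Igf1r transcript, and arrows mark annotated starts. The peaks of 134 and 236 tags stand in intron 2, and 6 further peaks follow past the end of the gene.

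Further peaks lay past the 3′ end of the gene, inside other annotated genes. From 10.1 kb to 79.7 kb beyond the end of Igf1r lay 6 more peaks with 339 ChIP tags in all, and no peak lay between 2.09 kb and 150 kb upstream of the first TSS. All 6 were nearest to the TSS of Pgpep1l and are not counted as Igf1r peaks. The peaks 10.1 kb and 31.6 kb past the end had their centres inside Pgpep1l, and the others inside the Fam169b record. The largest lay 77.4 kb past the end (chr7:75448353-75449392), within the Fam169b record, and had 153 tags against 3, a 36.5-fold excess (12.3 to 179). The others had 19, 33, 32, 49 and 53 tags, in order of position. The peak with 33 tags, 31.6 kb past the end, had no input tag, with an exact lower bound of 6.06-fold and an excess of 7.88-fold against the same 3 input tags. The one with 19 tags was within the 100 kb limit, 88.2 kb from the shorter transcript's TSS and 27.5 kb from that of Pgpep1l.

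Forkhead sites occurred in 5 of the 8 Igf1r peaks over their whole width, 13 sites in all, and in the central 200 bp of 2. All 8 sites of the pair of broad regions were ATAAACA or GTAAACA. In the 116 kb region the strict site lay 9 bp from the centre, with ATAAACA 120 bp to one side and 188 bp to the other. In the 176 kb region the sites were off centre: none lay in the central 200 bp, and 3 strict sites lay 124, 477 and 537 bp to the 3′ side. Its central 200 bp instead held GGGCGG, the SP/KLF site, found in 5.19% of all peaks farther than 1 kb from a TSS. The GC content there was 67.5%, beside medians of 43.0% for those peaks and 71.0% for all promoter peaks. Both peaks near the first TSS and the one 163 kb into the gene had no forkhead site. The whole Igf1r gene held 290 forkhead sites, 1.06 per kb, and the part of it covered by peaks held 2.80 per kb. Over all protein-coding genes the densities were 1.24 per kb and 1.77 per kb within peaks. For the strict site, Igf1r had 52, of which 5 lay in peaks, 1.08 per kb of peak beside 0.190 per kb of gene, and over all genes these values were 0.480 and 0.157. With 5 and 13 sites inside Igf1r peaks, these densities are rough. The sets of peaks are also unlike, as 6 of the 8 Igf1r peaks lay in intron 2 while the value for all genes includes promoter peaks. Of all promoter peaks 9.89% held a forkhead site in the central 200 bp, beside 51.5% of the other peaks.

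All 6 peaks past the end of Igf1r held a forkhead site over their whole width, beside 78.2% of all peaks farther than 1 kb from a TSS. In the central 200 bp 3 of the 6 held one, beside 51.5%. The same 3 peaks held a strict site, which lay 3 bp, 13 bp and 57 bp from the centre. In the peak with 153 tags another 9 of 10 sites belonged to a short repeat, 8 of them ATAAATA, that began 432 bp from the centre. The strict sites are shown with 25 bp on each side because their position near the centre differs from that in the 176 kb region (chr7:75403042-75403098, chr7:75448831-75448887 and chr7:75451172-75451228, plus strand, each with the site on the minus strand).
31.6 kb past the end: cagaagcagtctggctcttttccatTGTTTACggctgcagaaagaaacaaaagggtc
77.4 kb past the end: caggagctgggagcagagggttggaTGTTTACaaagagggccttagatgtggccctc
79.7 kb past the end: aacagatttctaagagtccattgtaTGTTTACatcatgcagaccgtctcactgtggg

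Among protein-coding genes, 20 (0.0894%) had at least 8 peaks by the same rule and 147 (0.657%) had at least 5; of the IGF genes, Igf1r met the first number and Igf1r and Irs1 the second. Exactly 8 peaks were counted at Igf1r and 6 other genes. Among the others closest to Igf1r (274 kb) in gene length were Nfib (416 kb), Arhgap24 (417 kb), Bcas3 (473 kb) and, though much shorter, 4930558K02Rik (37.6 kb). Their peaks held 325, 584, 390 and 516 ChIP tags, beside 504 at Igf1r, and the largest single peaks held 92, 176, 94 and 190 tags, beside 236. Forkhead sites were in the central 200 bp of 3, 3, 4 and 3 of their 8 peaks, beside 2 at Igf1r.

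The 2 ligand genes had 3 peaks between them, with 18 to 49 ChIP tags. Igf2 (chromosome 7:149836673-149852721, minus strand) had 1, a 1000 bp region (149844776-149845776) centred 118 bp downstream of one of its 8 annotated starts, in the 5′ UTR of exon 1 of that transcript. It had 49 ChIP tags against 3 (11.7-fold, 3.78 to 58.7), a GC content of 82.0% and 31 CpG in the central 200 bp, and no forkhead site. Igf1 (chromosome 10:87321010-87399792, plus strand) had a peak in intron 2 (87329144-87329644), 5.32 kb from its nearest start, and one 63.1 kb upstream (87257694-87258194). The intronic peak had 22 tags against 1 (15.8-fold, 2.55 to 650) and the upstream one 18 against 1 (12.9-fold, 2.04 to 537). Both had forkhead sites in the central 200 bp, a strict site in the intron and ATAAACA with ATAAATA upstream. The Igf2 peak had more tags and a GC-rich start, and the Igf1 peaks had forkhead sites.
Igf1 intron 2 (chr10:87329422-87329478, plus strand): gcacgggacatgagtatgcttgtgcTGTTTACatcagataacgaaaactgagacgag
Igf1 upstream (chr10:87257868-87257997, plus strand): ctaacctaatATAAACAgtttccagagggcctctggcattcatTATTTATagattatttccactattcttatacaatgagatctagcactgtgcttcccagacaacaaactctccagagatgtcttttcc

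The other 2 receptor genes each had a peak at the promoter. Insr, the insulin receptor gene and closest relative of Igf1r, had 1 peak in 129 kb (chromosome 8:3278927-3279588), centred 360 bp downstream of its main TSS in the first exon. It had 75 ChIP tags against 4 (13.4-fold, 5.03 to 50.6), the most of the 6 promoter peaks of these genes. Its single forkhead site, GTAAACA at 3279553-3279559, lay 299 bp from the centre. Another peak 52.9 kb upstream of Insr (3332093-3332874, 58 tags against 3) had a forkhead site in its central 200 bp but was nearest to A430078G23Rik. No peak centre lay in any intron of Insr.

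Igf2r (chromosome 17:12875272-12962530, minus strand) had a peak 159 bp upstream of its main TSS (12962357-12963021) with 28 tags against 1 (20.1-fold, 3.32 to 820). A second peak lay in intron 22 (12899550-12900050) and belonged to Igf2r only through lying inside it. It had 40 tags against 2 (14.3-fold, 3.72 to 122) and a strict forkhead site 112 bp from its centre, while the promoter peak had none. The intronic site is shown as the 1 forkhead site in either Igf2r peak.
Igf2r intron 22 (chr17:12899660-12899716, plus strand): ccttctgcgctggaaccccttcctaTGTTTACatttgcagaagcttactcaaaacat

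The genes of IGF binding proteins had the fewest peaks. Igfbp4 had 1, over its first coding exon (chromosome 11:98902630-98903130) and centred 322 bp downstream of its TSS, with 45 tags against 3 (10.7-fold, 3.45 to 54.1), a score of 45 (the peak caller's own, median of all peaks 25) and no forkhead site. Another 4 peaks within 100 kb of Igfbp4 were nearest to Rara, Tns4 and Ccr7. Igfbp3 was assigned 1 peak, 70.3 kb upstream of its TSS (chromosome 11:7183994-7184494), with 17 tags against 1 (12.2-fold, 1.91 to 509) and no forkhead site. With a limit of 50 kb, or with the starts of all annotated genes, this peak was not assigned to Igfbp3. A peak on the other side of the gene, at 70.1 kb, was nearest to Igfbp1, its neighbour. Igfbp2 and Igfbp5 lie next to each other on chromosome 1, and the closest peak to either was the same one (73131099-73131599, 60 tags against 2). It lay 259 kb from the nearest Igfbp2 start and 210 kb from that of Igfbp5, nearest to Tnp1.

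Irs1, the adaptor gene (chromosome 1:82229676-82287991, minus strand), had the peak with the highest score of these genes. It lay in the single intron of the main transcript, 37.4 kb from the TSS (82250238-82250863), with a score of 89 that ranked 251st of 9165. It had 93 ChIP tags against 5 (13.3-fold, 5.51 to 42.0) and 149 tags per kb. The strict site and an ATAAACA lay 57 bp and 84 bp from the centre. Of the 15 forkhead matches in the peak, 12 were overlapping copies of ATAAATA in 1 short repeat (82250696-82250746), which leaves 3 elsewhere. The centre and the repeat are shown because the number of matches rests on the repeat.
Irs1 intron, centre (chr1:82250451-82250650, plus strand): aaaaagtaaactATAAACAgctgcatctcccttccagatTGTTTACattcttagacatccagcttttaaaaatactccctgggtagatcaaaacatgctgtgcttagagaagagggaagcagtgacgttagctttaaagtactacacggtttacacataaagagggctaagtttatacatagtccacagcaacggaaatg
Irs1 intron, repeat (chr1:82250686-82250815, plus strand): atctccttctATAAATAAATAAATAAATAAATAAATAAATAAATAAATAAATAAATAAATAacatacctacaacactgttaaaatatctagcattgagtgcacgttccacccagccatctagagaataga

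The other 4 Irs1 peaks were smaller. The promoter peak, 368 bp upstream of the TSS, had 34 tags against 2 (12.2-fold, 3.12 to 105) and no forkhead site. In the intron, a peak 17.2 kb from the TSS had 19 tags against 1, and one 32.6 kb from the TSS had 18 against 1. The last lay in the 3′ UTR of exon 2, 54.9 kb from the TSS, with 19 tags against 1. The first and the last of these 3 held a forkhead site in the central 200 bp. The strongest peak and those 32.6 kb and 54.9 kb from the TSS were nearest to Gm9747, at 3.42 to 25.7 kb, and belonged to Irs1 only through lying inside it.

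**Figure D2:**
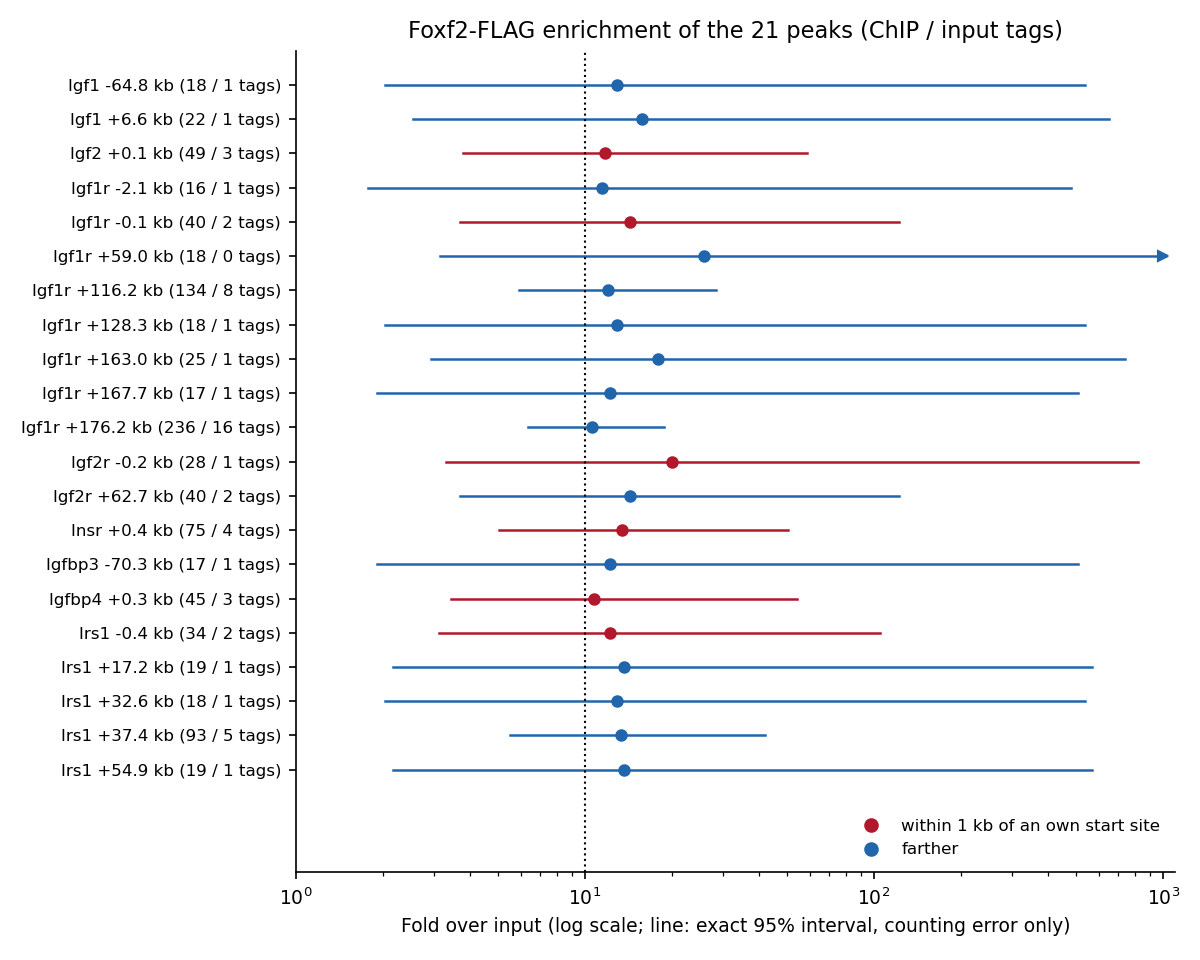
Fold over input of the 21 peaks (horizontal log axis) with exact 95% intervals for counting error, by gene and distance from the main TSS (vertical axis, with ChIP and input tags); red marks peaks within 1 kb of an own TSS and the dotted line is the 10-fold excess the peak caller required. The deposited fold is plotted, which takes 0.5 where a peak has no input tag; the peaks of 75, 93, 134 and 236 tags have lower bounds above 5.

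A peak lay within 1 kb of an own TSS at 6 of the 10 genes (Igf2, Igf1r, Igf2r, Insr, Igfbp4 and Irs1), while 11.3% of all protein-coding genes had one. Of all 10 genes 8 had any peak, beside 23.9% of protein-coding genes. As the genes were proposed with results known, nothing is read from either share. These 6 were 28.6% of the 21 peaks, close to the 25.7% of all peaks. Their GC content was 69.5% to 82.0% (median 72.5%) and that of the other 15 was 29.5% to 70.0% (median 43.0%), beside medians of 71.0% and 43.0% for all promoter and all other peaks. The SP/KLF site GGGCGG was in the central 200 bp of 4 of the 6 promoter peaks, beside 54.7% of all promoter peaks. It was also in 2 of the other 15, the 236-tag Igf1r region among them, beside 5.19% of all other peaks.

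Forkhead sites were about as frequent in the peaks of these genes as in the whole list. They were in the central 200 bp of 7 of 21 peaks (33.3%), beside 40.8% of all 9165 peaks. The same windows moved 2 kb to lower coordinates held one in 3 of 21 cases and in 18.2% of all cases. The strict site was in 4 of 21 centres, beside 15.3% of all. By position, 0 of 6 promoter peaks and 7 of 15 others (46.7%) held a forkhead site, beside 9.89% and 51.5% in the whole list. Over the whole width of the peak the count was 12 of 21 (57.1%, all peaks 64.3%). Of other patterns searched in the 21 centres, the pattern AGATAA of GATA factors was in 3, TEAD (GGAATG) in 2, SOX (AACAAAG or its variant AACAATG) in 1 and the E-box CATCTG in 1. RUNX (TGTGGTT with a following A or T), AP-1 (TGANTCA) and homeobox (TAATTA) patterns were in 0. In all peaks these shares were 9.73%, 9.93%, 10.7%, 16.1%, 3.24%, 4.72% and 5.68%. All patterns were searched on both strands. The forkhead pattern read backwards, which shares ATAAATA with it, was in 3 of 21 centres, beside 18.8% of all.

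**Figure D3:**
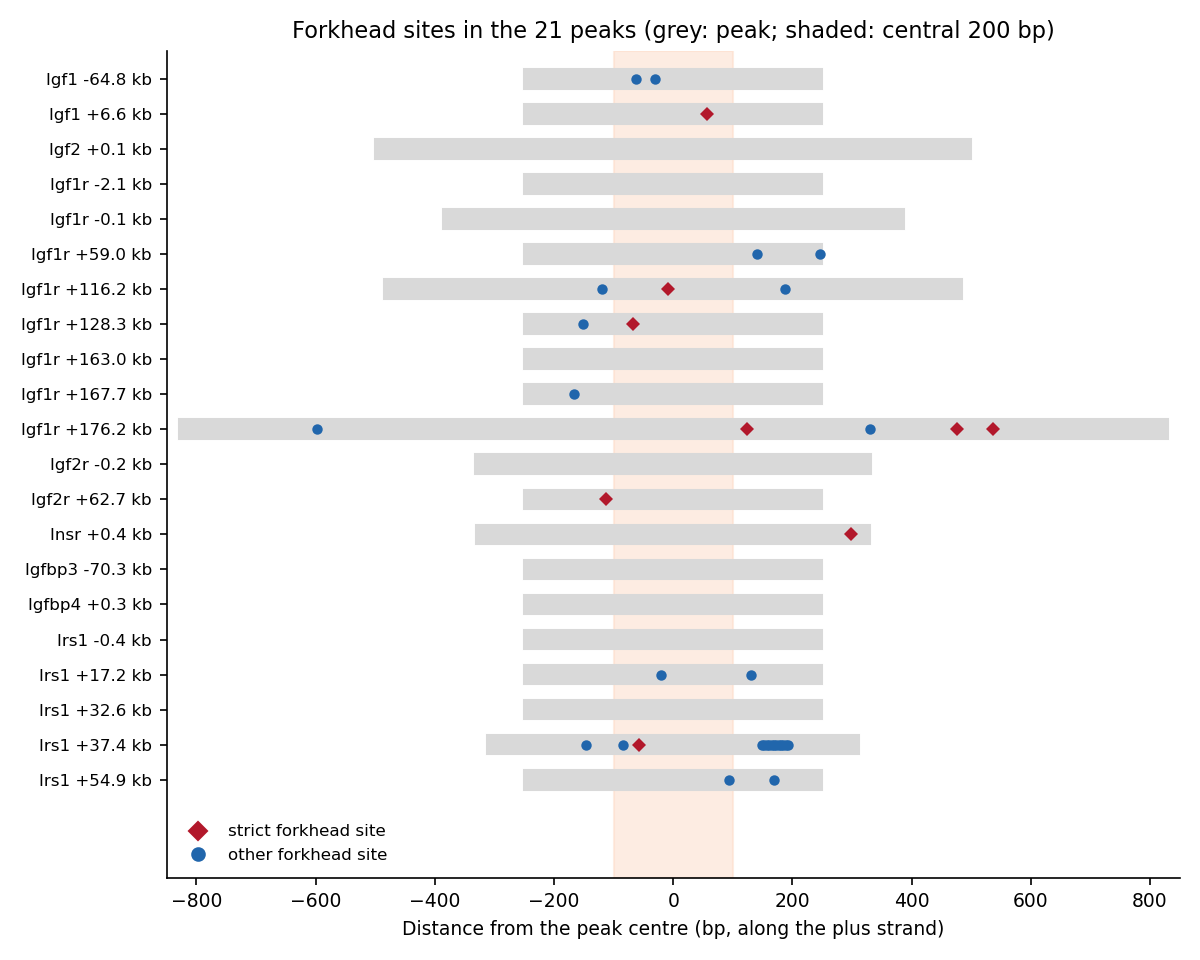
Forkhead sites (points) by distance from the peak centre in bp (horizontal axis) in each of the 21 peaks (grey bars, drawn to their width), with the central 200 bp shaded; diamonds are the strict site GTAAACA. In the widest Igf1r peak all 5 sites lie outside the shaded centre, and 12 sites of the strongest Irs1 peak overlap in a repeat.

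The median of these peaks was 25 ChIP tags (range 16 to 236), beside 30 for all peaks, and 9 of 21 (42.9%) had at most 20 tags, beside 29.0%. The median fold was 12.9 in both. Score and tag number ranked the Igf1r peaks differently. The 236-tag region had a score of 19 and the 134-tag region 27, and of the 40 peaks with at least 236 tags it was the 1 with the lowest score (median of the 40, 56). The other peaks with a score of 19 had at most 191 tags. The strongest Irs1 and Igfbp4 peaks had scores of 89 and 45 with 93 and 45 tags.

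**Figure D4:**
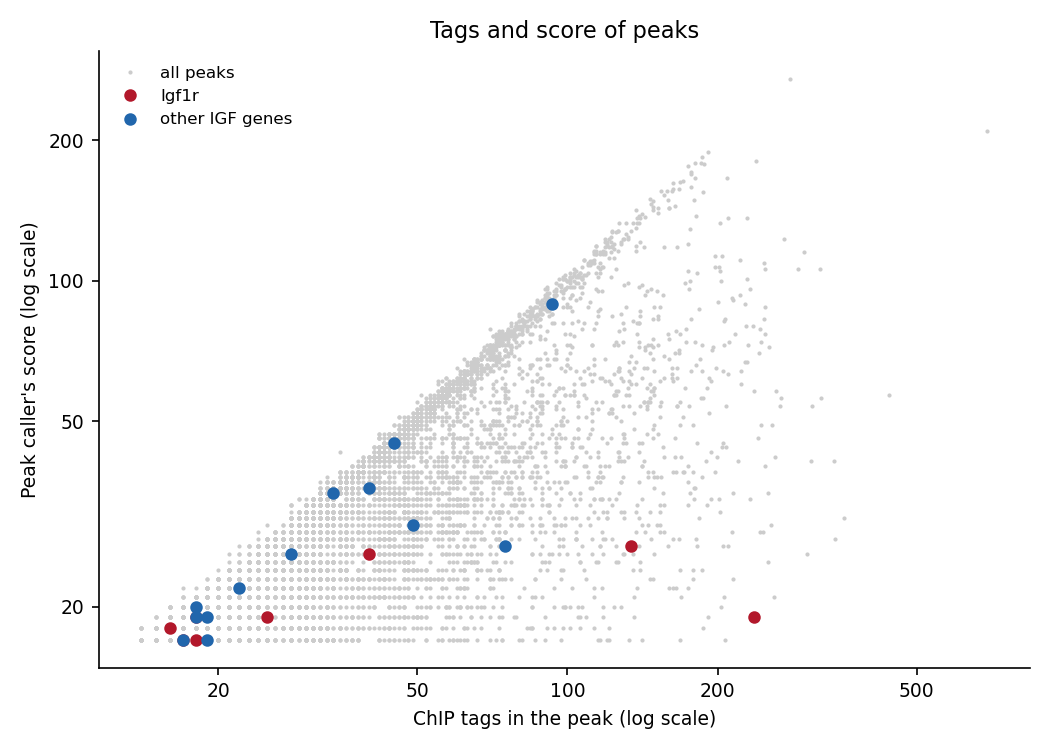
Peak caller's score (vertical log axis) against ChIP tags (horizontal log axis) of all 9165 peaks in grey, with Igf1r peaks in red and those of the other IGF genes in blue. The 236-tag Igf1r peak lies at a score of 19, and the 93-tag Irs1 peak at 89.

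Of 47 other genes of the pathway, 21 (44.7%) had a peak by the same rule, beside 23.9% of all protein-coding genes. They had 41 peaks in all, of which 12 held a forkhead site in the central 200 bp, beside 40.8% of all peaks. The list was written with earlier results of these data known, so nothing is read from these shares. By role, the genes with a peak were 1 of 2 insulin genes (Ins1), 2 of 5 other binding protein genes (Igfbp1 and Igfbp7) and 3 of 5 genes for proteases that cut binding proteins or inhibitors of these (Pappa, Pappa2 and Htra1). They also included 2 of 3 genes for Igf2 mRNA-binding proteins, 4 of 9 adaptor genes, 7 of 19 genes of the PI3-kinase, AKT and mTOR cascade and 2 of 3 Foxo genes. Insrr, the insulin receptor-related receptor gene, had none. Among the highest scores were those at Foxo3 (128), Pappa2 (85), Ins1 (81), Rptor (80), Irs2 (41), Foxo1 (36) and Igfbp7 (35).

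The Ins1 peak lay 55.9 kb from its TSS with 79 tags against 3 (18.9-fold, 6.22 to 93.4) and a forkhead site in its central 200 bp. Pappa2, which encodes a protease of IGF binding proteins, had its best peak 87.6 kb from a start with 80 tags against 5 (11.5-fold, 4.71 to 36.3). Rptor, a subunit gene of mTOR complex 1, had one 23.7 kb away with 83 tags against 3 (19.8-fold, 6.55 to 98.1). The best Irs2 peak lay 29.8 kb away with 45 tags against 3. Named after their values were seen, the promoter peak of Pik3ca, a catalytic subunit gene of PI3-kinase, had 243 tags against 10 (17.4-fold, 9.30 to 36.8). The tag number of this Pik3ca peak was above that of every peak of the 10 IGF genes, while its fold interval overlapped that of the 236-tag Igf1r region. Pik3r1, which encodes a regulatory subunit, had 5 peaks, as many as Irs1.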

How the data were processed

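Per the submitters' processing notes, reads were aligned to mm9 and the tools were Bowtie 1.0.0, SAMtools 0.1.19 and HOMER (version not stated there). HOMER findPeaks, per the file headers, was run in histone style with input as control; it stitched 500 bp peaks and required a 10-fold excess over input and over the surrounding 10000 bp. The deposited signal is ChIP tags per 10000000, from which whole tags were recovered (largest distance from a whole number 0.134). The deposited score is the caller's own, and the authors' fold is a ratio of depth-scaled ChIP to input tags, with 0.5 for no input tag. The deposited p-value was not used.

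Peaks were compared with GENCODE vM1 genes on NCBIM37, the assembly of mm9, by Python 3.11.15 and SciPy 1.17.1. Starts were those of protein-coding transcripts. Assignment, motif search and intervals were tested on simulated data. The genes and lists were chosen with earlier results of these data known. All 10 genes were to be named, with up to 8 pathway genes by score and 5 genes closest to Igf1r in length at equal peak number. Some genes that this rule names are not reported here. Without replicates no test between groups was made. No separate input file was analysed here; input tags come from the peak list.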

Additional observations from a re-analysis of the deposited data

How the results depend on the processing

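Of 54 alternatives, 34 left the result within 1.5 times its main value, or the fold within its interval. The limit of assignment, the choice of starts, the use of any base of a peak and the use of assigned peaks alone left 7 or 8 genes with a peak and all 8 Igf1r peaks. Where 7 were left, the gene lost was Igfbp3. A shorter limit could not remove an Igf1r peak, as 6 lay inside the gene and the rest at most 2.09 kb from its first TSS. The strength of peaks mattered more. The 50% of peaks with the highest scores left 9 of 21 peaks and 2 at Igf1r, without the 236-tag region, and the top 10% by score left 1 gene (Irs1), 1 peak, 0 at Igf1r and 4 pathway genes. At least 30 tags left 9 peaks and 3 at Igf1r, the 236-tag region among them. At least 15-fold left 3 genes, 4 peaks, 2 at Igf1r and 10 pathway genes. Those 2 Igf1r peaks were small, with 18 tags against 0 and 25 against 1, and neither broad region of intron 2 was kept. A forkhead site was counted in 12 peaks of the 10 genes over the whole peak, 11 in the central 400 bp, 3 in the central 100 bp, 4 with the strict pattern, 3 with the pattern read backwards and 3 in windows moved 2 kb. Of 13 forkhead sites in peaks inside Igf1r, 2 lay in the central 200 bp and 5 were strict. Low input counts, at most 1 tag in 12 of 21 peaks, limit the folds. No paired analysis was possible because each group had 1 library.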
